A study of Mus musculus with 9 samples.

Results

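The genes described here are those of the proteins of the cytosolic ribosome. They were taken by symbol, as rows named Rpl or Rps followed by a number with at most 1 letter of a, l, x or y and further digits, together with Rplp0, Rplp1, Rplp2 and Rpsa. The rule found 83 rows among 18634 genes, 32 of the small subunit and 51 of the large subunit, the latter including the 3 stalk proteins. The ribosome is built of a small subunit, which reads the messenger RNA, and a large subunit, which joins amino acids and carries the stalk that recruits elongation factors. Its proteins are needed in near-equal numbers, and their messengers are short, abundant and, in vertebrates, typically begin with a tract of pyrimidines through which their translation is controlled together. Several genes have a closely related copy, such as Rpl22l1 beside Rpl22, whose product can take the parent's place in the ribosome.

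Brainstem, cortex and hypothalamus of C57BL/6J mice of 9 to 11 weeks were collected at ZT12 after normal sleep (NS), after 12 h of sleep deprivation (SD) or after recovery sleep (RS) following the same deprivation, whose length the sources state as 24 h or as 12 h. Every region of every sleep group was a pool of 3 mice and became a single library, 9 in all, without replicates. Cells were captured in droplets, and transcripts were counted by their molecular identifiers (UMIs), which removes PCR copies. Only library 7 could be tied to its sample: all 1999 barcodes of the brainstem NS cell list were found in it, while no other library held more than 13. Libraries are numbered in the order in which their codes first appear, and the remaining 8 could not be assigned to a sample, so no comparison of sleep groups or regions was made. Their codes have 3 prefixes, shared by libraries 1 to 3, 4 to 6 and 7 to 9, which the labels do not explain. The study states how many cells each region had, which bears on the prefixes, but no region was assigned from cell numbers or expression.

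The libraries held 2575 to 3916 cells and 1522766 to 5488950 UMIs, with a median per cell of 402 to 1055 UMIs. Of the 29015 distinct barcodes, 549 occurred in more than 1 library. Libraries 4 to 6 stood apart in that growth hormone (Gh), a product of the pituitary, took 25.3% to 32.1% of their UMIs, against at most 0.00755% in the others. Shares below are therefore also given of a net total, which leaves out mitochondrial genes, hemoglobin genes and pituitary hormone genes. Intervals are at 95%, exact Clopper-Pearson for shares and exact Poisson for counts, and cover counting error only.

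Ribosomal protein genes took 2559007 UMIs, or 8.13% of all UMIs in the table. Their median level was 844 CPM (UMIs scaled to a common total, so that libraries or cell types of different depth can be compared), against 10.9 CPM for the median of all genes, and 64 of them were among the 200 most abundant genes. These are levels of transcripts counted at their 3' end, in which a gene's length does not enter. The 10 most abundant members took 32.1% of the members' UMIs. The highest was Rpl41, which encodes the smallest ribosomal protein, at 4992 CPM over all cells. It was followed by Rps29 at 3723 CPM, Rps27 at 3378 CPM, Rpl37a at 2525 CPM and Rpl37 at 2302 CPM, and then by Rps28, Rpl38, Rps19, Rps14 and Rpl13, which lay between 2021 and 1712 CPM. In all, 25 members reached 1000 CPM. At the other end, Rpl3l and Rpl39l, copies of Rpl3 and Rpl39, stood at 0.191 and 0.699 CPM. The members lay on 19 chromosomes, 4 of them on the X chromosome. The annotation calls 82 of them protein-coding and Rpl6l, on chromosome 10, a processed pseudogene, so reads of its parent Rpl6 and of Rpl6l may not be separable. Many members have such near-identical copies elsewhere in the genome, and how the counting divided reads between them was not tested.

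The starts of 7 of these genes are shown because they illustrate both the presence and the lack of the pyrimidine tract for which this class of messenger is known. RefSeq windows (GRCm38.p6) from 250 bases before to 50 bases after the annotated start were at hand for 62 of the 83 members, and 1 window, the first listed, was used for each gene. A run of at least 8 C or T letters on the gene's strand, within 25 bases on either side of the start, was present in 30 of 62 members (48.4%) and in 19.4% of the 27025 genes with a window. The letters CCGGAAG, a binding motif of ETS factors, were found on either strand in 25 of 62 members (40.3%) and in 9.12% of all genes. AAGATGGC, a YY1 motif, was found in 5 members (8.06%) against 2.88% of all genes, and TATAAA in 6 members (9.68%) against 14.2%. No overlap between these motifs was removed, and a match describes letters only. In the windows of 30 bases below, capitals mark the longest C/T run within 25 bases of the annotated start.
Rpl7a (chr2:26910788-26910817, + strand): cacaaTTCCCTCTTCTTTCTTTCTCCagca
Rpl38 (chr11:114668568-114668597, + strand): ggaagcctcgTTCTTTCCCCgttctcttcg
Rps27 (chr3:90213632-90213661, - strand): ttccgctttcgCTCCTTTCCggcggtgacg
Rplp2 (chr7:141447636-141447665, + strand): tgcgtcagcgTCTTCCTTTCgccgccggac
Rpl22l1 (chr3:28805499-28805528, + strand): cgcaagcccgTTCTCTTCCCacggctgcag
Rpl22 (chr4:152325697-152325726, + strand): tcccgacagccgaCTTCgccctgggaaaag
Rpl41 (chr10:128549156-128549185, - strand): gacacacgggccggCTCggaagtgacgaca
The run of Rpl7a measured 21 bases and spanned the start, and those of Rpl38, Rps27 and Rplp2 measured 10, 9 and 10 bases and also spanned it. Rpl22l1 had a run of 10 bases just after its start, while the longest run beside the annotated start of its parent Rpl22 measured 4 bases. Rpl41, the most abundant member, had no more than 3 such letters in a row near the annotated start. Annotated starts can differ from the starts used in these cells, which the counts do not show.

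Among the cell types of library 7, the share of UMIs from ribosomal protein genes was highest in macrophages and lowest in astrocytes among the types of at least 40 cells. The 67 macrophages gave 20.8% (20.5 to 21.1), that is 17271 of 83040 UMIs. Microglia, the resident immune cells of brain tissue, followed with 12.7% in 549 cells, and endothelial cells of the vessel wall with 10.9% in 573 cells. The vascular smooth muscle cells (VSMCA) gave 9.09% in 230 cells. The cells labelled Oligodendrocyte gave 8.60% (8.42 to 8.79; 43 cells) and ependymal cells (EPC) 8.52% (8.39 to 8.65; 88 cells), and these neighbours did not differ beyond their intervals. Pericytes gave 6.23% in 168 cells, glutamatergic neurons 3.37% (3.21 to 3.52; 55 cells) and astrocytes 3.13% (3.04 to 3.21; 188 cells). Over these 9 types, the highest share was 6.66 times the lowest, and 6.08 times on the net total, where macrophages gave 21.8% and astrocytes 3.58%. Macrophages stood 1.64 times as high as microglia.

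The share also varied from cell to cell. The median macrophage had a share of 20.01% and the middle 80% of macrophages lay between 11.8% and 32.0%. The median microglial cell had 11.2%, the median endothelial cell 10.8% and the median astrocyte 2.33%, with 4.98% as the 90th percentile of astrocytes. All macrophages lay above that value, and 62.7% of them lay above the 90th percentile of microglia, 18.0%. Glutamatergic neurons had a median of 1.82%, below that of astrocytes, although their summed share was higher.

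**Figure D1:**
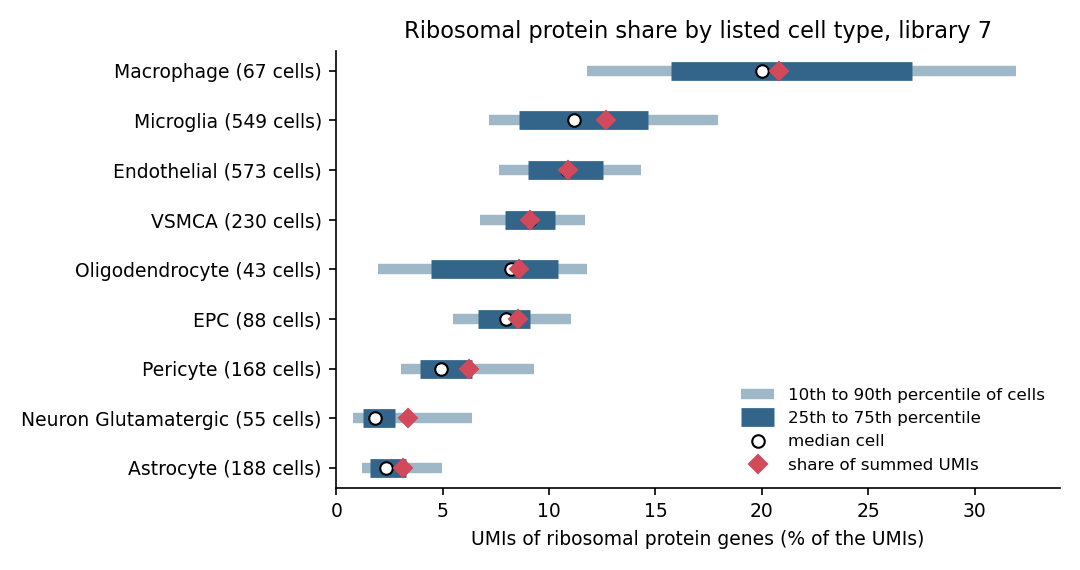
Share of UMIs from the 83 ribosomal protein genes (%, horizontal axis) in the cells of each listed type of library 7; pale bars span the 10th to 90th percentile of cells, dark bars the 25th to 75th, circles the median cell and diamonds the share of the summed UMIs. The diamonds run from 20.8% in macrophages to 3.13% in astrocytes.

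Cell depth moved with the share in part of the types. Within pericytes, Pearson's r between a cell's share and its log10 UMIs was 0.48, within astrocytes 0.47, within glutamatergic neurons 0.45 and within the cells labelled Oligodendrocyte 0.50. It was 0.35 within EPC and 0.32 within microglia, and -0.10 within macrophages, -0.03 within endothelial cells and 0.01 within VSMCA. The shallower microglia gave 10.7% and the deeper ones 13.7%, against 10.9% in both the shallower and the deeper endothelial cells, so that microglia stood above endothelial cells only among the deeper cells. In astrocytes the shallower cells gave 2.23% and the deeper ones 3.61%, both below all macrophages. With only cells of at least 1000 UMIs, macrophages gave 20.4% and astrocytes 4.27%, a ratio of 4.77. Mitochondrial genes, often high in damaged cells, took 26.7% of the UMIs of glutamatergic neurons, 22.3% of those of the cells labelled Oligodendrocyte, 12.1% in astrocytes and 4.12% in macrophages. Whether damage has a part in the low neuronal share was not tested.

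The labels were checked against markers. All 7 macrophage markers, among them Lyz2, Mrc1 and Pf4, were at least 2 times as high in the macrophages as in the other listed cells, and Mrc1, Cd163 and Lyve1 had no UMI in the 549 microglia. All 9 astrocyte markers, all 8 microglial markers and all 8 endothelial markers were raised by the same measure in their own types. Among 6 oligodendrocyte markers, only Cldn11 was raised in the 43 cells labelled Oligodendrocyte, and Mobp, Mag and Ermn were at 0. Their leading genes were Prg4, Dapl1 and Cldn11, and 4 of 6 fibroblast markers were raised. In pericytes all 6 pericyte markers were raised, but so were all 6 fibroblast markers. In the glutamatergic neurons all 8 neuronal markers were raised, Slc17a6 and Slc17a7 of glutamatergic neurons as well as Gad1 and Gad2, which mark neurons that use GABA. These 3 labels are kept here as names of groups of cells.

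To ask whether the difference between types was carried by a few genes or by the class, each type was set against all other listed cells for every gene of at least 50 CPM, after adding 10 CPM to both levels, and a gene was counted when it was at least 1.5 times as high or as low. Of the members, 81 of 83 were high enough to be compared, all but Rpl3l and Rpl39l. In macrophages, 77 of 81 were at least 1.5 times as high, against 12.4% of all 2841 genes compared. The members' median there was 2.16-fold, or 1.11 on the log2 scale, while the median of all genes was -0.45. In microglia 25 of 81 were at least 1.5 times as high, against 18.2% of all genes, with Rps9 (log2 1.13), Rplp1 (1.02) and Rps4x (1.02) in front, and a median of 1.37-fold. The microglial count depended on the setting. In cells of at least 1000 UMIs it was 34 of 80, against 17.1% of all genes. At a fold of 2 it was 3 of 81, against 11.4%. On the net total it was 15, close to the 15.6% of all genes there. In endothelial cells only Rpl38 (log2 0.94) and Rps27l (0.60) passed, against 26.4% of all genes.

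On the other side, 79 of 81 members were at least 1.5 times as low in astrocytes, where 50.1% of all genes were, with a median of -1.69 on the log2 scale against -0.59 for all genes. Glutamatergic neurons had 80 of 81 at least 1.5 times as low, but so were 63.6% of all genes, and the medians were -1.54 and -1.03. Only Rpl7l1, a copy of Rpl7, was at a higher level in glutamatergic neurons than in the other cells, on 4 UMIs. In pericytes 56 of 81 were at least 1.5 times as low, against 29.6% of all genes, and in cells of at least 1000 UMIs this count was 15 of 80, below the 33.4% of all genes there. VSMCA, EPC and the cells labelled Oligodendrocyte had 4, 11 and 7 members at least 1.5 times as low, fewer than the shares of all genes there (38%, 37% and 42.4%). In EPC and in the cells labelled Oligodendrocyte, Rpl22l1 was the only member at least 1.5 times as high, where 17.2% and 8.66% of all genes were.

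**Figure D2:**
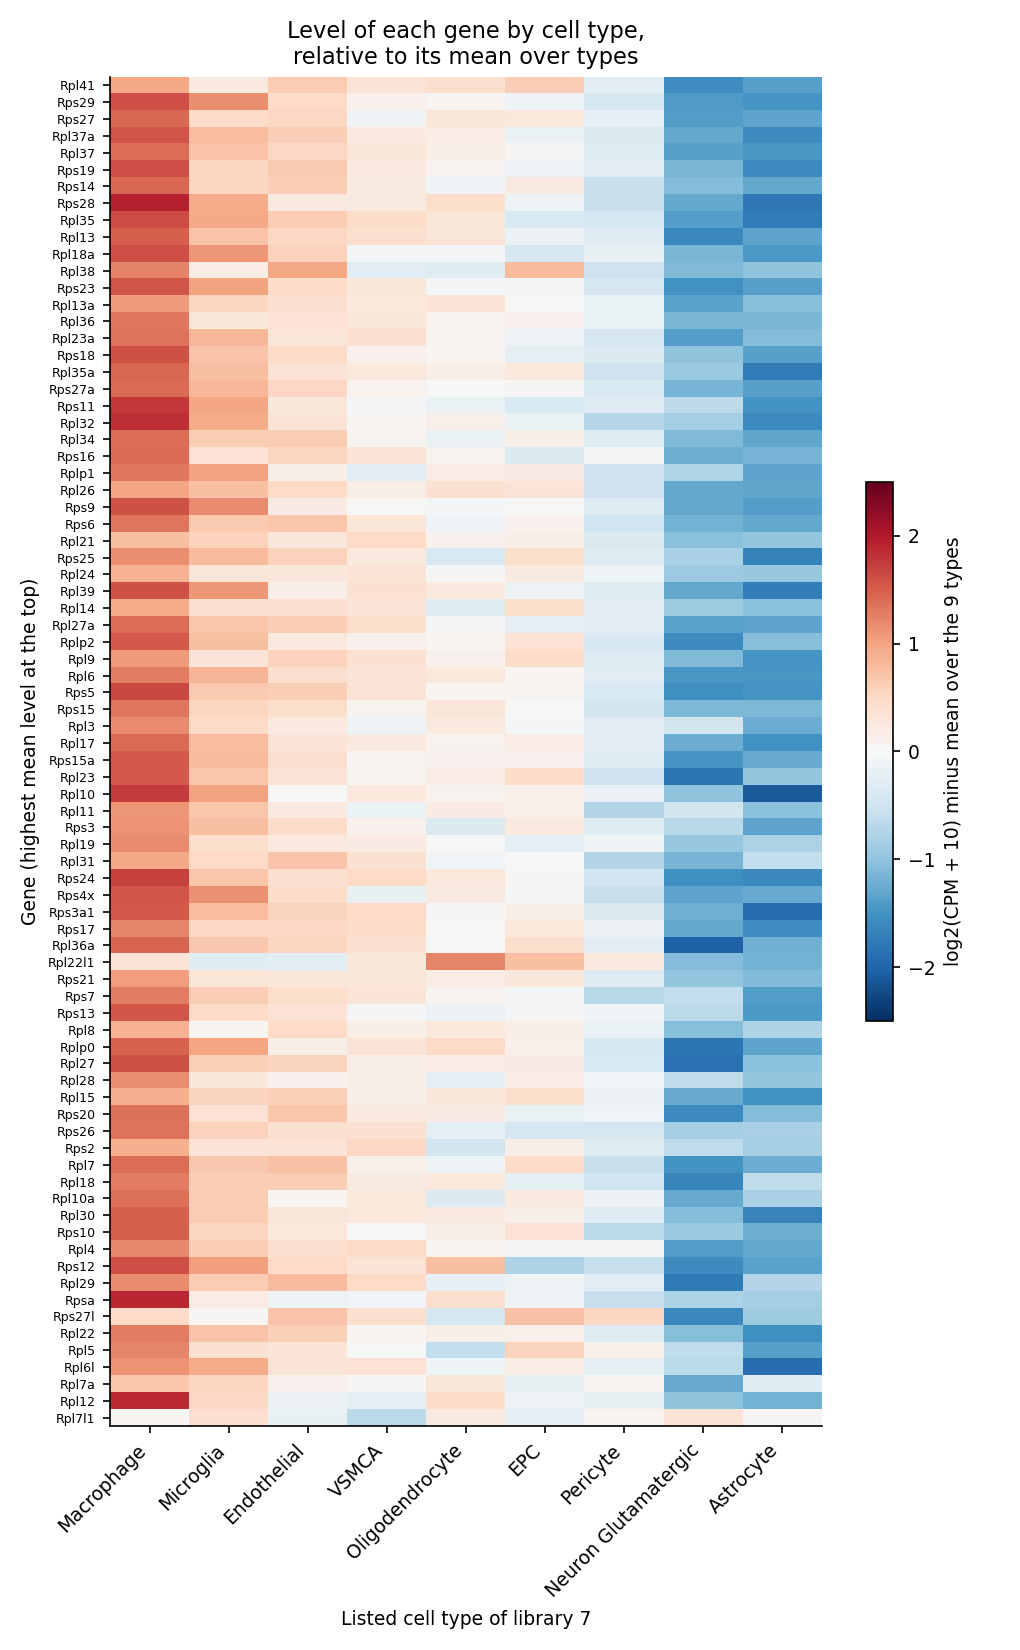
Level of 80 of the 81 members compared (rows, highest mean level at the top) in the 9 listed cell types of library 7 (columns), as log2(CPM + 10) minus the gene's mean over types; red is above and blue below the mean. The macrophage column is red and the astrocyte and glutamatergic neuron columns are blue for nearly all rows, and Rpl22l1 and Rpl7l1 depart from this.

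Most members had the same highest cell type and 1 of the same 2 lowest types. Macrophages had the highest level for 78 of 81, where 9.75% of all genes peaked in macrophages, and astrocytes or glutamatergic neurons had the lowest for 80 of 81, where 41% of all genes did. The orders of the types between these ends were not compared. The 3 members that peaked elsewhere were the copies Rpl22l1 (highest in the cells labelled Oligodendrocyte), Rps27l (522 CPM in EPC on 89 UMIs and 519.7 CPM in endothelial cells on 337 UMIs, within counting error of each other) and Rpl7l1 (highest in microglia, and lowest in VSMCA, on 10 UMIs). The ratio of the highest to the lowest type had a median of 6.81 over the members and 6.69 over all genes compared. The members are among the more abundant genes, and counting error and the added 10 CPM weigh more at low levels. Genes of like level were not compared, so these medians do not tell whether the members differ from other genes in the size of their range. The widest was that of Rpl10, a large subunit protein near the catalytic centre, with 2505 CPM (2176 to 2869) in macrophages, 1484 in microglia, 804 in EPC, 733 in endothelial cells and 165 (109 to 238) in astrocytes, a ratio of 14.4 on the scale with 10 CPM added. Rps28, a small subunit protein, followed with 7322 CPM in macrophages, 3671 in microglia, 2279 in endothelial cells, 1278 in pericytes and 547 in astrocytes.

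Among the abundant members, the middle of the order varied. Rpl41 stood at 8550 CPM in macrophages, 6746 in endothelial cells, 6702 in EPC, 5783 in the cells labelled Oligodendrocyte and 5450 in VSMCA. It then stood at 5192 CPM in microglia, 3576 in pericytes, 1694 in astrocytes and 1487 in glutamatergic neurons. Microglia thus lay below endothelial cells and EPC for Rpl41, whereas for Rps29 they came second, with 8433 CPM against 5379 in endothelial cells, 4057 in VSMCA and 3515 in EPC, and with macrophages at 11621 CPM. Rpsa, which is also known as a laminin receptor, stood at 1264 CPM (1034 to 1531) in macrophages, while no other of the 9 types exceeded 450.2 CPM.

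The 3 stalk proteins, which contact the elongation factors, were highest in macrophages and next highest in microglia. Rplp0 stood at 1566 CPM in macrophages, 1112 in microglia, 625 in endothelial cells, 218 in astrocytes and 153 in glutamatergic neurons. Rplp1 stood at 2577 CPM in macrophages, 2082 in microglia, 1150 in endothelial cells, 610.1 in glutamatergic neurons and 406 in astrocytes. Rplp2 stood at 2553 CPM in macrophages, 1480 in microglia, 1032 in endothelial cells, 412 in astrocytes and 286 in glutamatergic neurons.

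Depth alone can change how many members are found in a cell, so cells were thinned to 500 UMIs each, which left out 19 of the 1999 listed cells. At that depth a median of 49 of the 83 members was found in a macrophage, 35 in a microglial cell, 34 in an endothelial cell, 31 in a VSMCA and 27 in an EPC. The median was 19 in a pericyte, 10 in an astrocyte and 9 in a glutamatergic neuron. Without thinning the medians were 64 in a macrophage, 45 in a microglial cell, 15 in an astrocyte and 11 in a glutamatergic neuron.

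The make-up of the members' UMIs varied far less than their sum. The small subunit supplied 45.9% of the members' UMIs in macrophages, 44.3% in microglia, 43.0% in endothelial cells, 41.7% in VSMCA, 40.9% in astrocytes and 40.6% in EPC. The ratio of small to large subunit UMIs was 0.848 in macrophages and 0.684 in EPC, a ratio of 1.24 between the extremes. Over the 67 members of at least 500 CPM, a gene's share of the members' UMIs differed between its highest and lowest type by a median of 1.72 times. Rpl22l1 had the widest range, 4.49 times, from 0.376% of the members' UMIs in macrophages to 1.69% in the cells labelled Oligodendrocyte. Other wide ranges were those of Rpl36a (2.29 times), Rpl10 (2.28), Rpl38 (2.27) and Rpl8 (2.26). Rpl38, a protein known from skeletal patterning mutants, took 3.00% (2.73 to 3.30) of the members' UMIs in EPC and 1.32% (1.23 to 1.41) in microglia, and was 2913 CPM in endothelial cells against 1217 CPM in VSMCA. For Rpl36a the lowest type was glutamatergic neurons, on 8 UMIs.

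Among the copies, Rpl22l1 and Rpl22 were measured at comparable levels and their balance differed between types. In macrophages Rpl22l1 had 65 UMIs and Rpl22 61 UMIs, so that Rpl22l1 made up 51.6% (42.5 to 60.6) of the pair. It made up 50.8% (46.3 to 55.3) in microglia and 53.1% (49.1 to 57.1) in endothelial cells. In VSMCA it made up 71.5% (66.2 to 76.3), in pericytes 76.2% (68.4 to 82.9), in EPC 76.8% (70.9 to 82.1) and in the cells labelled Oligodendrocyte 81.8% (74.8 to 87.6). The intervals of the first 3 types did not overlap those of the last 4. Astrocytes had 73.8% (60.9 to 84.2), an interval that lay just above that of macrophages, and glutamatergic neurons 68.2% (45.1 to 86.1), which overlapped all others. In CPM, Rpl22 followed the class, from 735 in macrophages to 94.1 in astrocytes, while Rpl22l1 was 1454 in the cells labelled Oligodendrocyte, 1050.5 in EPC, 783 in macrophages and 265 in astrocytes. Over the 9 libraries, Rpl22l1 made up 63.4% of the pair in library 7 to 74.6% in library 5.

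Rps27l stood well below Rps27 everywhere, at 4.41% (3.12 to 6.03) of the pair in macrophages, 6.02% in microglia, 9.17% in endothelial cells, 10.9% in VSMCA and 12.9% (10.1 to 16.0) in pericytes. Rps27 itself ranged from 9658 CPM in macrophages to 1354 CPM in glutamatergic neurons, and Rps27l from 522 CPM in EPC to 95.3 CPM in glutamatergic neurons, the latter on 5 UMIs. Rpl7l1 was low in all types, from 32.5 CPM in VSMCA to 80.8 CPM in microglia, and the intervals of these levels overlapped among all 9 types. As a share of the pair with Rpl7, it made up 24.4% (12.4 to 40.3) in astrocytes, on 10 UMIs. That interval lay above those of endothelial cells, with 6.18% (4.26 to 8.61), VSMCA, with 6.25% (3.04 to 11.2), and macrophages, with 4.81% (1.58 to 10.9). Rpl3l had no UMI in the 9 types, and Rpl39l had 4 UMIs, all in microglia.

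**Figure D3:**
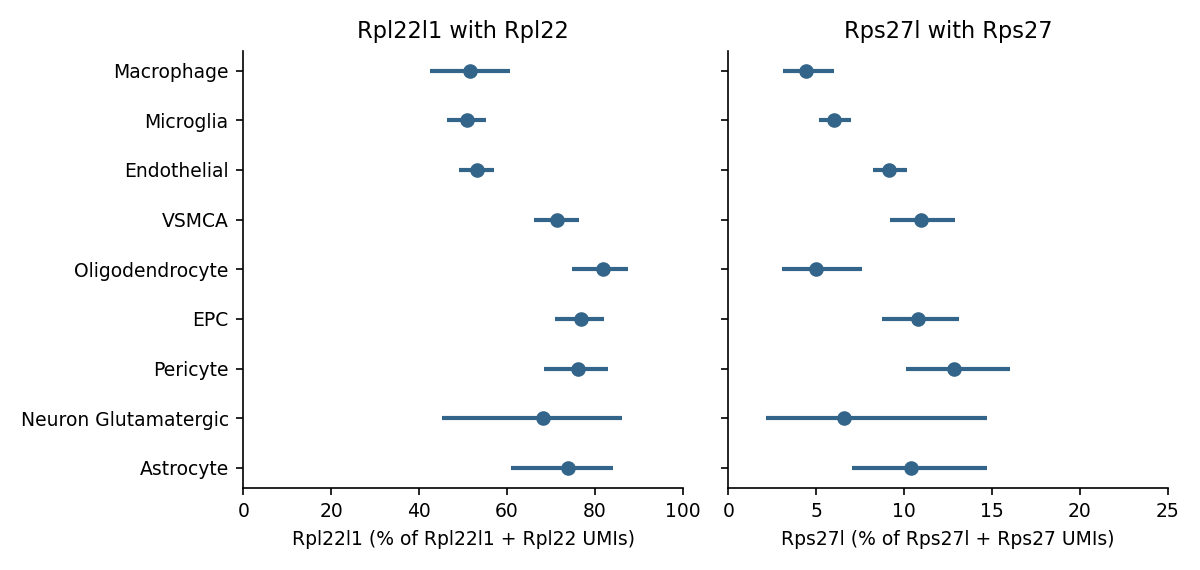
Share of the copy in the UMIs of copy and parent together (%, horizontal axis) for Rpl22l1 with Rpl22 (left) and Rps27l with Rps27 (right; its axis ends at 25%) in the listed cell types of library 7; points are shares and lines exact 95% intervals for counting error. Rpl22l1 lies near 50.8% to 53.1% in macrophages, microglia and endothelial cells and at 71.5% to 81.8% in VSMCA, pericytes, EPC and the cells labelled Oligodendrocyte.

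Other genes of the translation machinery differed in how far they followed the members. Of 7 elongation factor genes, 6 were high enough to be compared. In macrophages 4 of these were at least 1.5 times as high and in astrocytes 4 as low, against 12.4% and 50.1% of all genes. All 7 together summed to 3336 CPM in macrophages, 2192 in microglia and 965 in astrocytes. Tpt1, a translationally controlled gene on the same list that is no elongation factor, stood at 2119 CPM in macrophages, 743 in microglia and 300.0 in astrocytes. Of 26 genes on the list of translation initiation, which also holds the inhibitors Eif4ebp1 and Eif4ebp2 and the poly(A)-binding Pabpc1, 18 were compared, of which 3 were at least 1.5 times as high and 2 as low in macrophages, against 12.4% and 45.2% of all genes, and 14 were as low in astrocytes, against 50.1%. All 26 summed to 5202, 4940.1 and 2694 CPM in macrophages, microglia and astrocytes. The proteins of the mitochondrial ribosome, which is a separate particle, summed to 4998 CPM (4528 to 5502) in macrophages, 4640.5 in microglia and 5786 in endothelial cells. In EPC they summed to 6579 CPM, in astrocytes to 4624 (4306 to 4959) and in glutamatergic neurons to 2707.5 (2280.5 to 3191). Of 39 of them compared, 6 were at least 1.5 times as high and 8 as low in macrophages, where 12.4% of all genes were as high and 45.2% as low. In glutamatergic neurons 22 of the 39 were as low, where 63.6% of all genes were. The cytosolic members thus had 41.6 UMIs per UMI of the mitochondrial list in macrophages, 27.3 in microglia, 18.9 in endothelial cells, 12.95 in EPC and 6.76 in astrocytes. Of 22 ribosome biogenesis genes no more than 5 were high enough to be compared, and all 22 summed to 1541 CPM in macrophages and 771 in astrocytes.

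Between the libraries, the share of the members was lowest in libraries 1 to 3. It was 5.79%, 5.02% and 4.82% in libraries 1, 2 and 3, 8.99%, 7.93% and 10.1% in libraries 4, 5 and 6, and 9.16%, 8.71% and 8.41% in libraries 7, 8 and 9. The highest share, that of library 6, was 2.10 times the lowest, that of library 3, and the counting intervals of no neighbours in this order overlapped. On the net total the shares were 6.33%, 5.48% and 5.21% in libraries 1 to 3, 13.8%, 12.2% and 17.0% in libraries 4 to 6, and 10.8%, 9.99% and 10.1% in libraries 7 to 9. With the pituitary hormone genes alone left out of the total, chosen after seeing the data, libraries 4 to 6 had 12.9%, 11.3% and 16.3%, and libraries 7 to 9 had 9.16%, 8.71% and 8.41%. The order of libraries 4 to 6 against 7 to 9 thus depended on whether the hormone genes were counted, while libraries 1 to 3 were lowest in each case. Without libraries 4 to 6 the highest share was 1.90 times the lowest.

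**Figure D4:**
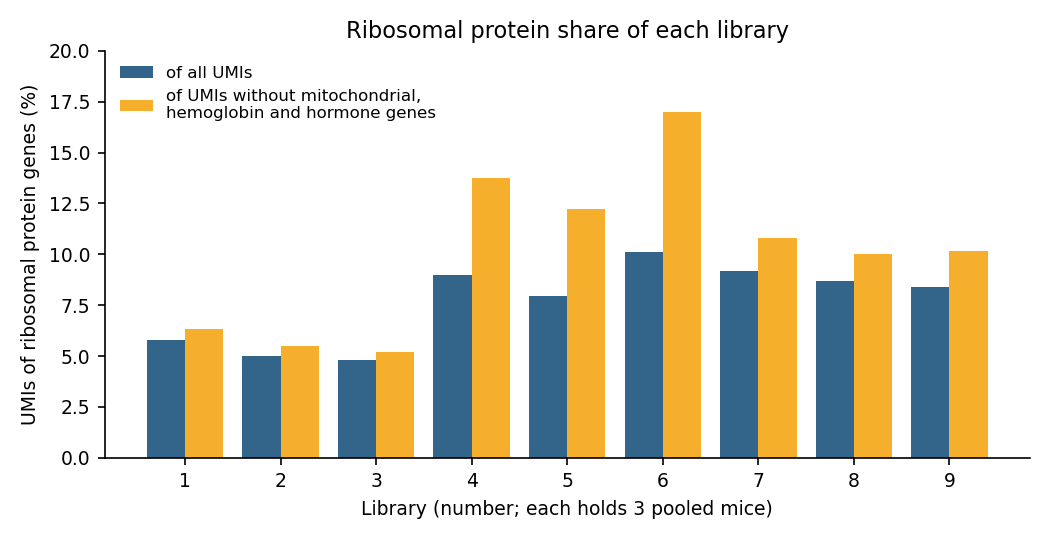
Share of UMIs from the 83 ribosomal protein genes (%, vertical axis) in each of the 9 libraries, of all UMIs (blue) and of the net total (yellow). Libraries 1 to 3 lie between 4.82% and 5.79% of all UMIs, and library 6 is highest with 10.1%, or 17.0% of the net total.

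The members moved between the libraries together. Of 81 members of at least 10 CPM, 75 were lowest in library 1, 2 or 3 and 53 were highest in library 6, against 18.1% and 2.97% of the 9673 genes of that level. All of libraries 7 to 9 lay above all of libraries 1 to 3 for 70 of the 81 (23.8% of the same genes), and all of libraries 4 to 6 above all of libraries 1 to 3 for 78 (12.5%). Against the other 8 libraries, 61 of 80 members compared were at least 1.5 times as low in library 3, where 17.7% of 2796 genes were, and 50 were in library 2 and 19 in library 1, where 12.7% and 12.8% of genes were. In library 6, 9 of 80 were at least 1.5 times as high, where 3.33% of genes were. These counts depended on the total. On the net total, a setting added after seeing the data, 72 of 81 members were at least 1.5 times as high in library 6, where 10.1% of 3624 genes were, and 54, 71 and 75 were as low in libraries 1, 2 and 3, where 19.6%, 18.7% and 24.2% of genes were. Library 6 was then the highest for 75 of 81 (10.6% of 10578 genes) and library 1, 2 or 3 the lowest for 77 (31.9%), while libraries 7 to 9 lay above libraries 1 to 3 for 75 (27.9%) and libraries 4 to 6 above them for 80 (28.3%). Rpl41 stood at 2346, 2119.6 and 2243 CPM in libraries 1 to 3, at 5271, 4559 and 7716 CPM in libraries 4 to 6 and at 5103, 5133 and 5726 CPM in libraries 7 to 9. Rps27 stood at 1879, 1685 and 1538 CPM in libraries 1 to 3, at 3499, 3232 and 3848 CPM in libraries 4 to 6 and at 4062, 4279 and 4079 CPM in libraries 7 to 9. For both genes libraries 1 to 3 did not overlap the others. Of all UMIs, Rps27 was higher in each of libraries 7 to 9 than in any other. On the net total this order turned, with Rps27 at 5360.1, 4979 and 6472 CPM in libraries 4 to 6 and at 4799.8, 4910.1 and 4922 CPM in libraries 7 to 9. Rpl41 peaked in library 6 on both totals, with 12979 CPM on the net total.

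A gene's share of the members' UMIs again varied less than the sum, by a median of 1.40 times between its highest and lowest library over 80 members of at least 200 CPM. The widest were Rps2 (2.16 times), Rpl7a (2.05), Rpl29, Rpsa, Rps27l and Rpl6l (each 2.01). Rps2 took 0.873% (0.816 to 0.934) of the members' UMIs in library 2 and 0.404% (0.382 to 0.428) in library 8. Rps27l took 0.497% in library 9 and 0.247% in library 5. The ratio of small to large subunit UMIs ran from 0.674 in library 3 to 0.761 in library 8, 1.13 times apart, and libraries 7 to 9, between 0.743 and 0.761, lay above the other 6, which reached 0.706.

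The mix of cells differed between the libraries. Cells were clustered over all libraries without the members, and classes were named from markers. Astrocyte-like and neuron-like cells were among the classes with low shares of members' UMIs. They supplied 76.9%, 78.2% and 81.7% of the UMIs of libraries 1, 2 and 3, against 3.82% to 18.5% in the other libraries. Macrophage-like and microglia-like cells supplied 3.98% to 12.5% of the UMIs of libraries 1 to 3. They supplied 0.865% to 3.68% of those of libraries 4 to 6 and 15.6% to 24.6% of those of libraries 7 to 9. Libraries 4, 5 and 6, with 3491, 2706 and 3916 cells, together held 3091 endocrine-like and 929 stem or folliculostellate-like cells of the pituitary. They also held 2852 cells of an unnamed cluster led by Gh. How far the mix of cells accounts for the shares of the libraries was not tested. Within classes, libraries 1 to 3 were placed differently against the 2 other sets. Their median was below that of libraries 4 to 6 in all 6 classes found in both, and the libraries did not overlap in 2 of these, astrocyte-like cells (3.89% to 4.04% against 4.53% to 4.95%) and neuron-like cells (3.36% to 3.59% against 5.12% to 5.85%). Of 7 classes found in libraries 1 to 3 and 7 to 9, the median of libraries 1 to 3 was above that of libraries 7 to 9 in 5. On the net total this order turned in neuron-like cells. Libraries 1 to 3 then had 3.86%, 3.63% and 3.56%, and libraries 7 to 9 had 3.78%, 4.10% and 5.71%. Of all UMIs, the libraries did not overlap in 3 of the 7. Astrocyte-like and VSMCA-like cells (9.46% to 10.2% against 8.65% to 9.27%) were higher in libraries 1 to 3 and macrophage-like cells lower. On the net total, astrocyte-like cells (4.28% to 4.43% against 3.19% to 4.45%) and VSMCA-like cells (10.4% to 11.5% against 10.2% to 10.6%) overlapped. Macrophage-like cells did not, with 20.8% against 21.8% to 22.6%. Pericyte-like cells gave 8.13% to 9.67% and 6.86% to 8.27% of all UMIs. On the net total they just ceased to overlap, with 9.809% to 11.2% and 7.56% to 9.805%. The neuron-like cells of libraries 1 to 3 lay within the range of libraries 7 to 9 on all UMIs. On the net total, those of libraries 2 and 3 lay below that range. Of all UMIs, endothelial-like cells gave 9.48% to 11.6% in libraries 1 to 3 and 10.4% to 10.8% in libraries 7 to 9. By the same measure, astrocyte-like cells gave 3.89% to 4.04% and 2.79% to 3.72%. Microglia-like cells gave 11.4% to 13.8% and 12.4% to 13.7%. Macrophage-like cells, of which libraries 1 to 3 had enough in 1 library, gave 19.6% there and 20.2% to 21.1% in libraries 7 to 9.

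Some pairs of classes kept 1 order in all libraries that held both, and others did not. The macrophage-like share had a median of 20.4% over 6 libraries (17.5% to 21.9%), the microglia-like share 12.7% over 8 (11.4% to 13.8%) and the endothelial-like share 11.2% over 9 (9.48% to 13.9%). VSMCA-like cells had 9.47%, EPC-like cells 8.60% and pericyte-like cells 8.20%. The astrocyte-like share was 3.91% over 8 libraries (2.79% to 4.95%) and the neuron-like share 3.59% over 9 (2.45% to 5.85%). In libraries 4 and 5, Gh took 7.04% and 4.39% of the UMIs of astrocyte-like cells and 15.5% and 6.69% of those of microglia-like cells, classes that should lack it. The highest astrocyte-like share, 4.95%, was that of library 4, and the part of free RNA in the shares was not tested. Macrophage-like cells were above microglia-like cells in 6 of 6 libraries, by 1.42 to 1.66 times, and above astrocyte-like cells in 6 of 6, by 3.54 to 7.53 times. Microglia-like cells were above endothelial-like cells in 7 of 8, endothelial-like above VSMCA-like cells in 7 of 8, EPC-like above fibroblast or leptomeningeal-like cells in 3 of 5, and astrocyte-like above neuron-like cells in 4 of 8. With at least 40 cells in libraries 4 to 6 only, stem or folliculostellate-like cells of the pituitary had 12.99% and endocrine-like cells 10.2%, or 16.9% of the net total. The unnamed cluster led by Gh had 6.20% of all UMIs but 17.8% of the net total. Cells rich in hemoglobin (HbVC-like) gave the lowest share, 0.873%, and 10.9% of the net total, so that the ratio of the highest to the lowest class was 23.4 with them and 5.69 without.

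**Figure D5:**
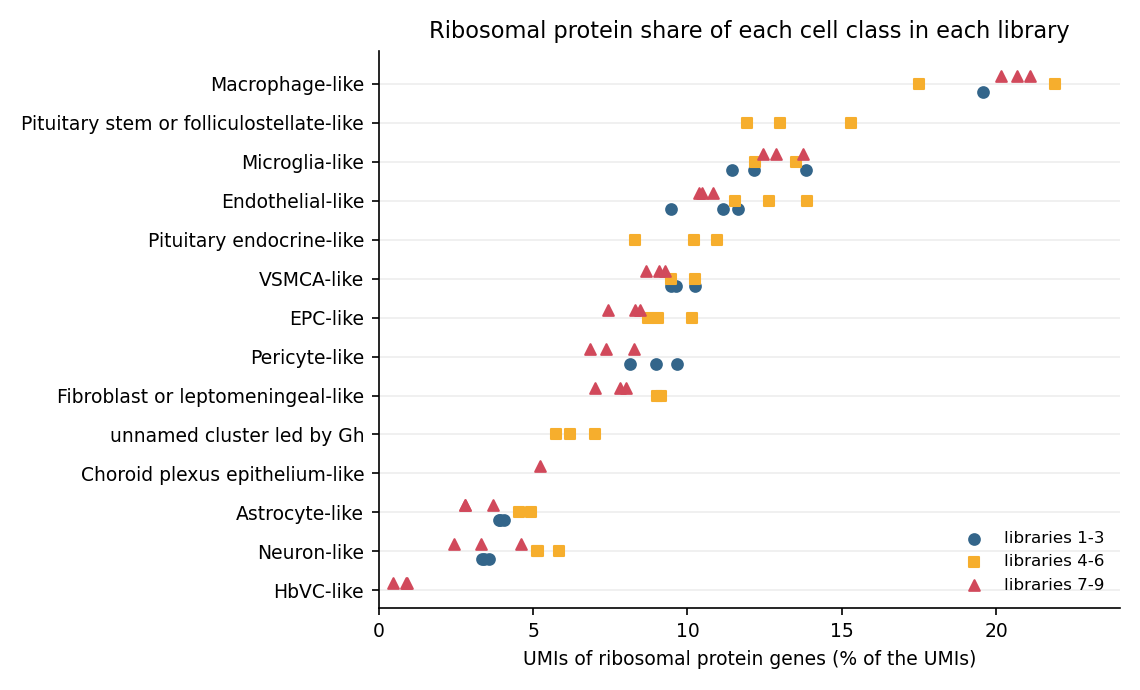
Share of UMIs from the 83 ribosomal protein genes (%, horizontal axis) in each cell class (rows, ordered by median) of each library with at least 40 cells of the class; each point is 1 library, and colours and shapes mark libraries 1 to 3, 4 to 6 and 7 to 9. Macrophage-like cells lie between 17.5% and 21.9%, and astrocyte-like and neuron-like cells at 5.85% or below, in every library shown.

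The genes outside the class whose levels over the 9 libraries were most like the members' share, by Pearson's r on levels of all UMIs among 515 genes of at least 100 CPM in every library, were Krtcap2 (r = 0.98), Sec61g (0.96), Dad1 (0.95), Atp6v1g1 (0.95), Pfdn5 (0.93), Mrpl52 (0.93), Npm1 (0.93), Tmem258 (0.92), Ier3ip1 (0.92) and Zbtb20 (0.91). The median of the candidates was -0.29, and that of the members 0.95, which is high in part by construction, since each member is counted in the share. The libraries have part of their classes of cells in common and libraries 1 to 3 lie apart in the members' share, and how far r rests on that gap was not tested. Over the 9 cell types of library 7, Pfdn5 had r = 0.95 and Npm1 0.89, while Dad1 had -0.13 and Zbtb20 -0.22. Among the members, Rpl7l1 was the least like the share, with r = -0.49 over the libraries.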

How the data were processed

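The authors mapped reads to GRCm38 with Cell Ranger 2.2.0, and the deposited table holds raw UMI counts per gene and cell, without normalization. Cell types of library 7 come from the study's list of brainstem cells, of which 1999 are held here. The members and gene lists were chosen with earlier results of these data known. Named genes were the 10 most abundant members, the 6 whose share of the members' UMIs varied most over libraries and over types, stalk genes, copies with their parents, and the 10 genes most like the share; other members were named after their values were seen. Clusters used 2000 variable genes without the members, 13 principal components, 20 neighbours and Leiden resolution 1 (alternative 0.5). A class needed at least 3 raised markers, and the rule for choosing between competing names was changed once a first set of clusters was known. No doublet caller was run; leaving out the 5% of cells with the most UMIs was the alternative. As no library has a replicate, nothing was tested. The fold rule was tested on simulated data in which a small chosen set of genes was raised. Depending on the cell type, 75.5% to 94.5% of the chosen genes raised 2-fold and 94.4% to 100% of those raised 3-fold were counted. With no change, up to 12.4% of the chosen genes and 9.37% of the other genes were counted. Chosen and other genes together numbered at least 2818, 2809 and 2840 in the 2-fold, 3-fold and unchanged runs. Lowered genes were not simulated, and the simulated counts had no spread between cells beyond counting error. The clustering was also run on simulated cells, with a result not reported here. Tools were leidenalg 0.10.2, scikit-learn 1.9.0, scipy 1.17.1 and numpy 2.4.6 in Python 3.11.15. Alternatives are given in the closing section. Some genes are not reported here by name, though sums over the members include them.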

Additional observations from a re-analysis of the deposited data

Results flagged for a closer look

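Of the rows outside the members, 15 are named as ribosomal protein pseudogenes. The annotation nevertheless calls Rpl9-ps6, Rpl10-ps3, Rps12-ps3 and Rpl9-ps1 among them protein-coding, at 311, 282, 243 and 1.37 CPM over all cells. The summed level of the 15 rows was above what 3 counts allow in every library, with no control library to set it against. It was 1567, 1069 and 625 CPM in libraries 1, 2 and 3, 1581, 1625 and 1417 CPM in libraries 4, 5 and 6, and 4530.3, 4069 and 2809 CPM in libraries 7, 8 and 9. Per 100 UMIs of the members this was 2.70, 2.13 and 1.30 in libraries 1 to 3, 1.76, 2.05 and 1.40 in libraries 4 to 6, and 4.95, 4.67 and 3.34 in libraries 7 to 9. In library 7 the same ratio ran over the 9 types of at least 40 cells from 4.14 in glutamatergic neurons to 5.73 in VSMCA, with 5.10 in macrophages and 4.35 in astrocytes. Whether these UMIs belong to transcripts of the members was not tested.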

How the results depend on the processing

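The order of groups changed in part. The lowest type was glutamatergic neurons as a mean over cells, and the lowest library was 2 in cells of at least 1000 UMIs. Libraries 4 to 6 lay above 7 to 9 on the net total and without pituitary hormone genes only. The cells labelled Oligodendrocyte lay above VSMCA on the net total, with 11.4% against 10.2%. They lay below EPC as a mean over cells and without the 5% of cells with the most UMIs. The ratio of the highest to the lowest library share, 2.10, was 3.27 on the net total, 1.78 as a mean over cells, 2.62 in cells of at least 1000 UMIs, 1.92 without the 5% of cells with the most UMIs and 1.97 without the 10 most abundant members; with libraries 4 to 6 left out, chosen after seeing the data, it was 1.90, and 2.08 on the net total, and without pituitary hormone genes only, likewise chosen, 3.38. The ratio between cell types, 6.66, was 6.08 on the net total, 7.96 as a mean over cells, 4.77 in cells of at least 1000 UMIs, 6.88 without the 5% of cells, 6.35 without the 10 members, 38.3 with clusters of library 7 in place of the listed types, and 7.10 with those clusters but without HbVC-like cells, also chosen after seeing the data. The small to large subunit ratio between libraries, 1.13, was 1.20 in cells of at least 1000 UMIs and 1.10 without the 10 members. The ratio between classes, 23.4, was 5.39 on the net total, 20.3 as a mean over cells, 34.4 in cells of at least 1000 UMIs, 28.4 without the 5% of cells, 25.7 without the 10 members and 5.69 without HbVC-like cells, again chosen after seeing the data. Members at least 1.5 times as high or as low in a type numbered 106 and 237 summed over 9 types, and 58 and 156 at a fold of 2. At that fold, 54 in place of 77 members were as high in macrophages, and 6.86% in place of 12.4% of all genes. In astrocytes, 77 in place of 79 were as low, and 34.7% in place of 50.1% of all genes. No other setting run, including leaving out the cells labelled Oligodendrocyte (chosen after seeing the data), moved either sum by over 1.5 times. Within types, the count as low in EPC, 11, was 18 of 81 without the 5% of cells (38.9% of all genes), and that in the cells labelled Oligodendrocyte, 7, was 22 in that setting (49.6% of all genes) and 1 on the net total (35.9%); the causes were not tested. Between libraries, the net total moved the members as high in library 6 from 9 to 72 and those as low in library 1 from 19 to 54. Macrophages were highest in each of the 6 alternatives run on the listed types and libraries 1 to 3 the lowest 3 in each of those run on libraries. With 1 library per group the spread between libraries of a group is unknown, and among the 9 types compared glutamatergic neurons rest on the fewest members' UMIs, 1765. No paired analysis was possible because each region and sleep group has 1 library and the result comes from no test.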

Other observations

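In library 7, the 1732 cells without a listed type gave 8.47% of their UMIs to the members, against 9.82% in the 1999 listed cells, and hemoglobin genes took 11.8% of their UMIs. The 18 cells labelled Neuron Other gave 3.68% (3.47 to 3.90) and the single cell labelled Unknown 7.05%. The 19 cells labelled HbVC, in which hemoglobin genes took 69.0% of the UMIs, gave 2.90%, or 9.97% of the net total.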
